A study of Mus musculus with 2 samples.

Results

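The regions described here are the YY1 peaks that were listed both in adipocytes of mice kept at room temperature and in adipocytes of mice exposed to cold. They were chosen from the peak lists themselves, as entries whose interval shares at least 1 bp with an interval of the other list. Of the 165 room temperature entries 154 met this rule, and of the 1259 cold entries 163 did. One further overlapping interval on chromosome 2 was left out, because its local background was high, at 138 fragments in the room temperature library and 150 in the cold library. With that interval the overlap takes in 93.9% of the room temperature list and 13% of the cold list, which are the shares the rule itself sets. The 154 room temperature entries lay in 151 distinct intervals covering 53.5 kb, and the 163 cold entries in 150 distinct intervals covering 84.8 kb.

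Both libraries were made from mature adipocytes, separated with collagenase from the inguinal subcutaneous fat of male wild type C57 mice aged 8 to 10 weeks. One library came from mice raised at room temperature and the other from mice given 7 days of cold stress, and no allele or transgene separates the groups. The protocol is CUT&Tag, in which a transposase held at the antibody cuts and tags nearby DNA in native nuclei, although the labels call it ChIP-seq. Names of entries include a 30 at room temperature and a 4 after cold. No source used here says what these numbers mean, and the groups follow the labels. If they were housing temperatures, the ratios below would compare cold with a baseline warmer than the label says. How many animals gave each library is not given either. With 1 library per condition there is no replicate spread, and no difference between the conditions was tested: all intervals below cover counting error only.

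YY1 is a zinc finger protein that binds a short DNA word around the bases ATGG and can activate or repress transcription, depending on its partners. It is best known at the promoters of broadly used genes, just beside the transcription start, where it meets the general transcription machinery, the INO80 chromatin remodeller and the cofactor HCFC1. In fat cells it has been studied as a regulator of mitochondrial and thermogenic genes. The lists measure DNA occupancy and not expression: none of the 8 adipocyte marker genes, the 4 macrophage, 4 endothelial or 4 fibroblast marker genes looked up carried a shared peak. Among them, Pecam1, an endothelial gene, had a cold-only peak. The cell type of the libraries therefore cannot be checked from these peaks.

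Promoter sequences were taken from RefSeq (GRCm38.p6, the assembly that mm10 names), each running from 250 bases before to 50 bases after a transcription start. A start lay within 1 kb of the cold summit for 129 of the 150 shared peaks on chromosomes that the promoter table covers, and these used 125 different promoters. The 7-letter YY1 core ATGGCGG, searched on both strands, was in 55 of the 125 promoters (44%, exact 95% interval 35.1 to 53.2). It was in 4.05% of all 32851 promoters of the same length, in 5.25% of the 21263 promoters of protein-coding genes, and in 33.2% of the 828 promoters beside peaks listed after cold only (30 to 36.5). Where the window held the cold summit itself, 33 of 54 promoters had the core (61.1%, 46.9 to 74.1). A longer YY1 form, which contains the core and adds the letters AAG before it and C after it, was in 23 of the 125 promoters (18.4%, 12 to 26.3) and in 0.633% of all promoters. A match is a description of the letters and not a measured binding site, and no difference between these sets was tested.

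The sites below come from shared peaks that are named later for their strength or shape. Each is read 5′ to 3′ in the direction of the core, which is in capitals, with the next 10 bases on either side.
Oxsr1, chr9:119322475-119322501, minus strand: cacactcaagATGGCGGccggggggcg
Tpgs1, first site, chr10:79669400-79669426, plus strand: gccgtgaattATGGCGGcgcttccggt
Tpgs1, second site, chr10:79669436-79669462, plus strand: cccaacaaagATGGCGGcagtggagaa
Cdk5rap2, chr4:70410409-70410435, minus strand: gccgggaaagATGGCGGcggctgcggt
Prpsap1, chr11:116490394-116490420, minus strand: cttttccgagATGGCGGcgggggcgga
Zfp882, chr8:71908591-71908617, minus strand: aggaagaaagATGGCGGgtgaagaact
Ndufb5, chr3:32737072-32737098, plus strand: cggtgtagccATGGCGGccatgagcct
Hcfc1, chrX:73966314-73966340, minus strand: gcggctcaagATGGCGGctcccagagc
Slc39a7 with Rxrb, chr17:34031651-34031677, plus strand: ctttaccaacATGGCGGcgccccgagg
Ube2l3, chr16:17201445-17201471, minus strand: cagatccaagATGGCGGccagcaggag
Otub1, chr19:7206243-7206269, minus strand: ctgtttaaagATGGCGGcggaggaacc
Most of these sites carry the letters aag before the core, while the first Tpgs1 site and the sites at Prpsap1, Ndufb5 and Slc39a7 do not. The Zfp882 site has g after the core and so is not of the longer form. The sites are a selection, and further cores in the same peaks, as at Hcfc1, are not in this list. How often the letters occur here is therefore no measure of how common the longer form is.

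To place the sites within whole promoters, 2 windows are given on the strand of their gene, with each core in capitals as ATGGCGG or, where it lies on the opposite strand, as its complement CCGCCAT. The Oxsr1 promoter, beside the peak with the next to highest ratio of cold to room temperature pileup, has 1 core on each strand.
Oxsr1, chr9:119322378-119322677, minus strand: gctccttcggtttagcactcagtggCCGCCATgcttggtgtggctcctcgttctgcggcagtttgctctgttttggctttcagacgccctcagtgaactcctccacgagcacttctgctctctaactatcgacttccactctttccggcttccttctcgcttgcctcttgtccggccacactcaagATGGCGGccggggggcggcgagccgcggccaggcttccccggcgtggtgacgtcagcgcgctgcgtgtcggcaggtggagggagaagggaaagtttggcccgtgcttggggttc
The Tpgs1 promoter, beside the first-ranked cold peak, has 2 cores in the direction of transcription on either side of the start.
Tpgs1, chr10:79669189-79669488, plus strand: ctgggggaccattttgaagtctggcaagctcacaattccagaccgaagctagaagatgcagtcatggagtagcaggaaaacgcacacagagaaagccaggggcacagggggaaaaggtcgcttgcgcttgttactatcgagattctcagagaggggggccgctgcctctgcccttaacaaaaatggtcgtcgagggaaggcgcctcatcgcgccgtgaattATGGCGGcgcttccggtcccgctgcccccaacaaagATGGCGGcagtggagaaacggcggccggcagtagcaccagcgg

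Other promoter words were counted in the same windows. The ETS word CCGGAAG was in 22.4% of the shared-peak promoters, 20.7% of the cold-only promoters and 8.86% of all promoters. The SP word GGGCGG was in 55.2%, 67.8% and 35.7% in the same order, and the NFY word CCAAT in 38.4%, 40.3% and 37.4%. The CRE word TGACGTCA was in 5 of the 125 shared-peak promoters (4%) and the NRF1 word in 1 of them (0.8%), against 1.79% and 0.971% of all promoters. The median GC content was 58.7% in the shared-peak promoters, 60.7% in the cold-only promoters and 52.7% in all promoters, so the sets also differ from all promoters in base composition, whose part in the motif shares was not tested.

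**Figure D1:**
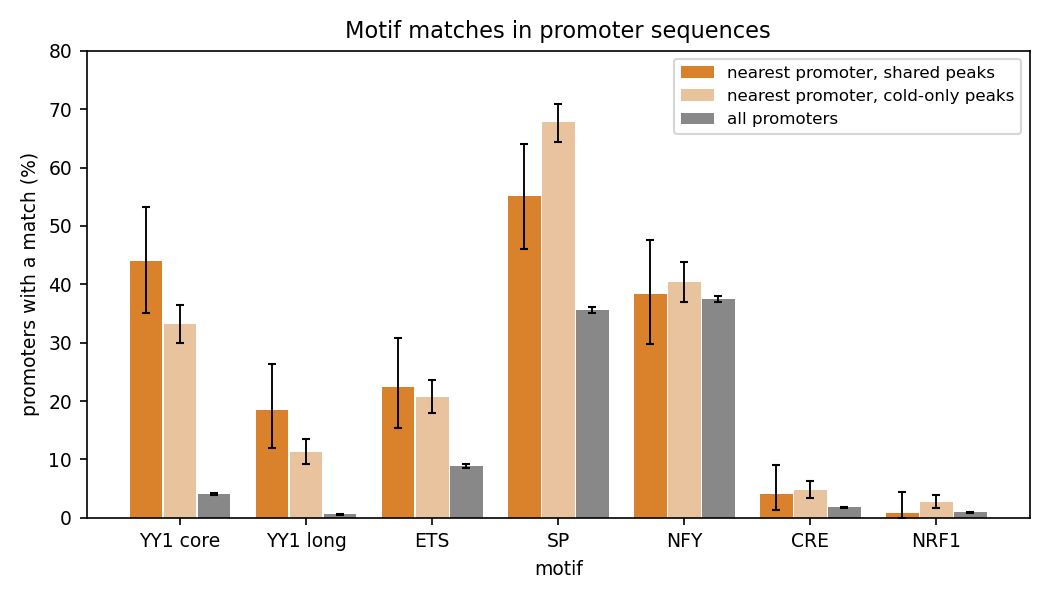
Share of promoters with a match to each motif (y axis, percent) for the promoters nearest to shared peaks, those nearest to cold-only peaks and all promoters. Bars are shares and whiskers exact 95% binomial intervals. The YY1 core stands at 44% beside shared peaks, 33.2% beside cold-only peaks and 4.05% over all promoters.

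The cores beside shared peaks pointed both ways. Of the 69 matches in the shared-peak promoters, 36 read in the direction of transcription (52.2%, 39.8 to 64.4). Beside cold-only peaks it was 214 of 295 (72.5%, 67.1 to 77.6), and over protein-coding promoters 715 of 1175 (60.9%, 58 to 63.7). Matches in the direction of transcription had a median of 13.5 bp downstream of the start beside shared peaks (quartiles -62.5 and 29.2), 21 bp beside cold-only peaks and 16 bp over protein-coding promoters. Of these, 21 of 36 (58.3%), 159 of 214 (74.3%) and 426 of 715 (59.6%) lay within 50 bp after the start. Those in the opposite direction had a median of 13 bp before the start beside shared peaks, with quartiles of -135 and 11 bp.

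The strength of a peak is given as its pileup, the number of fragments covering the summit, recovered as a whole number from the deposited values. For comparison each room temperature entry was paired with the overlapping cold entry whose summit was nearest, which gave 154 pairs using 152 different cold entries. The other 11 cold entries were further summits in the same intervals. The room temperature pileup of the pairs ran from 6 to 35 fragments with a median of 13, and the cold pileup from 15 to 141 with a median of 46. The cold pileup was the higher one in all 154 pairs. On the deposited fold enrichment, which divides by the local background, 3 pairs were lower after cold, those at Wdr20 (ratio 0.689), Adnp (0.822) and Cspp1 (0.902), where the background was higher in the cold library. In the chromosome 2 interval left out by the rule the cold pileup was higher too, which makes 155 of 155 pairs (100%). That count holds the members themselves and only 1 other interval, so it cannot show whether the direction is particular to the members. The median ratio of cold to room temperature pileup was 3.27, with quartiles of 2.57 and 4.17. It was at least 2 in 143 pairs (92.9%) and at least 5 in 18 pairs (11.7%).

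**Figure D2:**
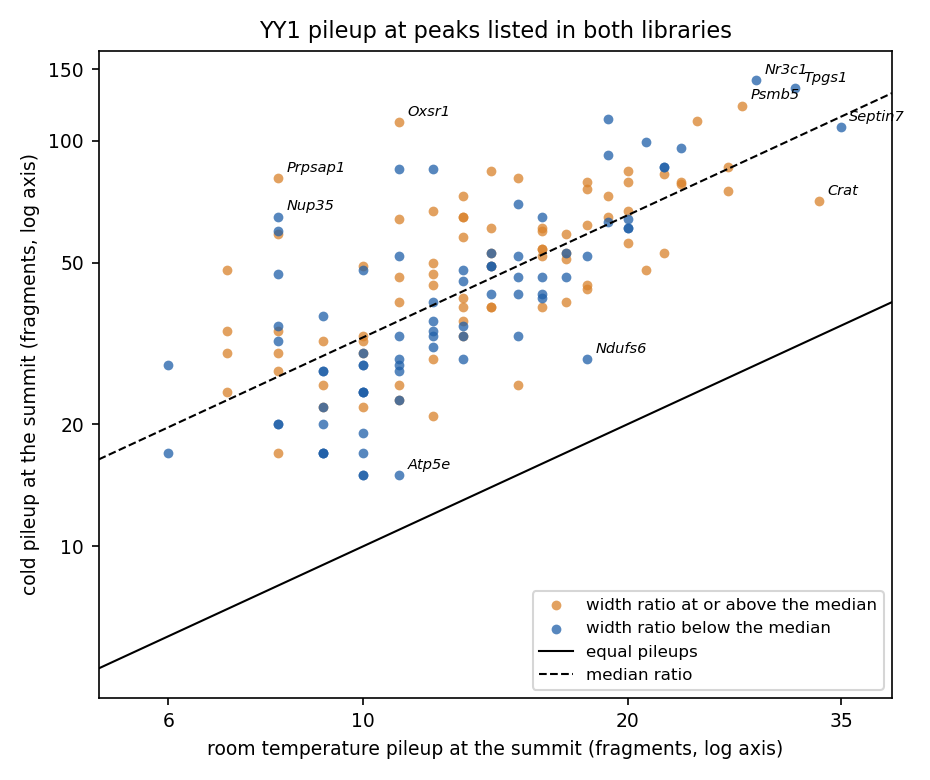
Pileup at the summit in the room temperature library (x axis, fragments, log scale) against the cold library (y axis, fragments, log scale) for 154 pairs. Points are coloured by whether the ratio of interval widths is above or below its median, the solid line marks equal pileups and the dashed line the median ratio of 3.27. All points lie above the line of equal pileups, and both colours run along the dashed line.

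Most ratios lay within their counting error of the median. The exact 95% interval of a pair's own ratio took in the median ratio in 143 of the 154 pairs. It lay wholly above the median in 10 pairs and wholly below it in 1, and in 16 pairs it reached down to 1. With the pairs ordered by room temperature pileup and cut into 3 classes, the median ratio was 3 in the low class (6 to 11 fragments), 3.33 in the middle class and 3.36 in the high class (16 to 35 fragments). Across pairs the ratio had a Pearson's r of -0.02 (log2 values) and a Spearman's rho of 0.06 with the room temperature pileup, its own denominator (n = 154). It followed the cold pileup (r 0.71, rho 0.72), which is its own numerator. Counting error in a denominator lowers such a correlation and in a numerator raises it. Neither value therefore shows whether the ratio depends on the strength of a peak. Pairs are not independent replicates, and those points share both libraries.

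The highest ratio was at Prpsap1, which encodes a protein associated with phosphoribosyl pyrophosphate synthetase, the source of activated ribose for nucleotides. Its summit held 8 fragments in the room temperature library (95% interval 3.45 to 15.8) and 81 in the cold library (64.3 to 101), a ratio of 10.1 (4.9 to 24.2). Oxsr1, a kinase gene of the osmotic and oxidative stress response, had 11 (5.49 to 19.7) and 111 (91.3 to 134), a ratio of 10.1 (5.43 to 20.8). Next were Nup35, which encodes a nuclear pore protein, with 8 and 65 fragments (ratio 8.12, 3.89 to 19.6), and N4bp1 with 8 and 60 (ratio 7.5, 3.57 to 18.2). Between them came Usf1, which encodes an E-box-binding transcription factor. Its room temperature interval held 2 summits of 11 and 12 fragments, and both were paired with a single cold summit of 85. In these peaks a weak room temperature summit stood against a cold summit of at least 60 fragments, so the room temperature count sets the error of the ratio.

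The 5 lowest ratios had cold pileups of 15 to 29 fragments. Atp5e, a subunit gene of the ATP synthase, had a room temperature pileup of 11 (5.49 to 19.7) and a cold pileup of 15 (8.4 to 24.7), a ratio of 1.36 (0.585 to 3.28). Ndufs6, a complex I subunit gene whose end lies beside Mrpl36, had 18 (10.7 to 28.4) and 29 (19.4 to 41.6), a ratio of 1.61. Its interval of 0.865 to 3.08 was the single interval wholly below the median ratio. Gadd45gip1, which encodes a protein of the mitochondrial ribosome, and Cspp1, a spindle and cilium gene beside Cops5, both had 10 and 15 fragments, a ratio of 1.5. Rab28, a small GTPase gene, had 15 and 25, a ratio of 1.67 (0.845 to 3.4). All 5 of these ratio intervals reached 1 or below, so equal pileups lie within their counting error.

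The 5 highest pileups of each library included Nr3c1, Tpgs1 and Psmb5 in both. Nr3c1, the glucocorticoid receptor gene, had a room temperature pileup of 28 and a cold pileup of 141, the highest cold pileup of the members. Its cold summit lay inside the gene, 27616 bp from the nearest gene end. The promoter table does not cover its chromosome, so its place relative to a start is not known here. Tpgs1 had 31 and 135, Psmb5 27 and 122, Slmap 19 and 113, and the centrosome gene Cdk5rap2 24 and 112. Septin7 had the highest room temperature pileup, 35, with 108 after cold, and Crat, the carnitine acetyltransferase gene, had 33 and 71. By −log10 q, Crat ranked 4 of 165 at room temperature and 34 of 1259 after cold, and its ratio of 2.15 (1.4 to 3.36) was among the lower ones. Prpsap1 ranked 163 at room temperature and 18 after cold, and Oxsr1 86 and 4, in lists of unequal length whose ranks show no change by themselves. Over the pairs these ranks were related with a Spearman's rho of 0.62 (Pearson's r 0.53).

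The shared intervals were wider after cold. The room temperature intervals of the pairs had a median width of 318 bp (quartiles 276 and 381) and the cold intervals one of 514.5 bp (420.5 and 651). The cold interval was the wider one in 152 of 154 pairs (98.7%). With the chromosome 2 interval included it was 153 of 155, a count that holds these same pairs and is no separate comparison. The median width ratio was 1.49 (quartiles 1.32 and 1.81), a median gain of 178.5 bp. It reached at least 2 in 25 pairs (16.2%). In 134 pairs the room temperature interval lay wholly inside the cold one (87%, 80.7 to 91.9). The gain fell on both sides, with a median of 92.5 bp at the lower coordinate and 70.5 bp at the higher one. Turned into the direction of transcription, for the 129 pairs near a start, it was 84 bp upstream and 90 bp downstream.

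**Figure D3:**
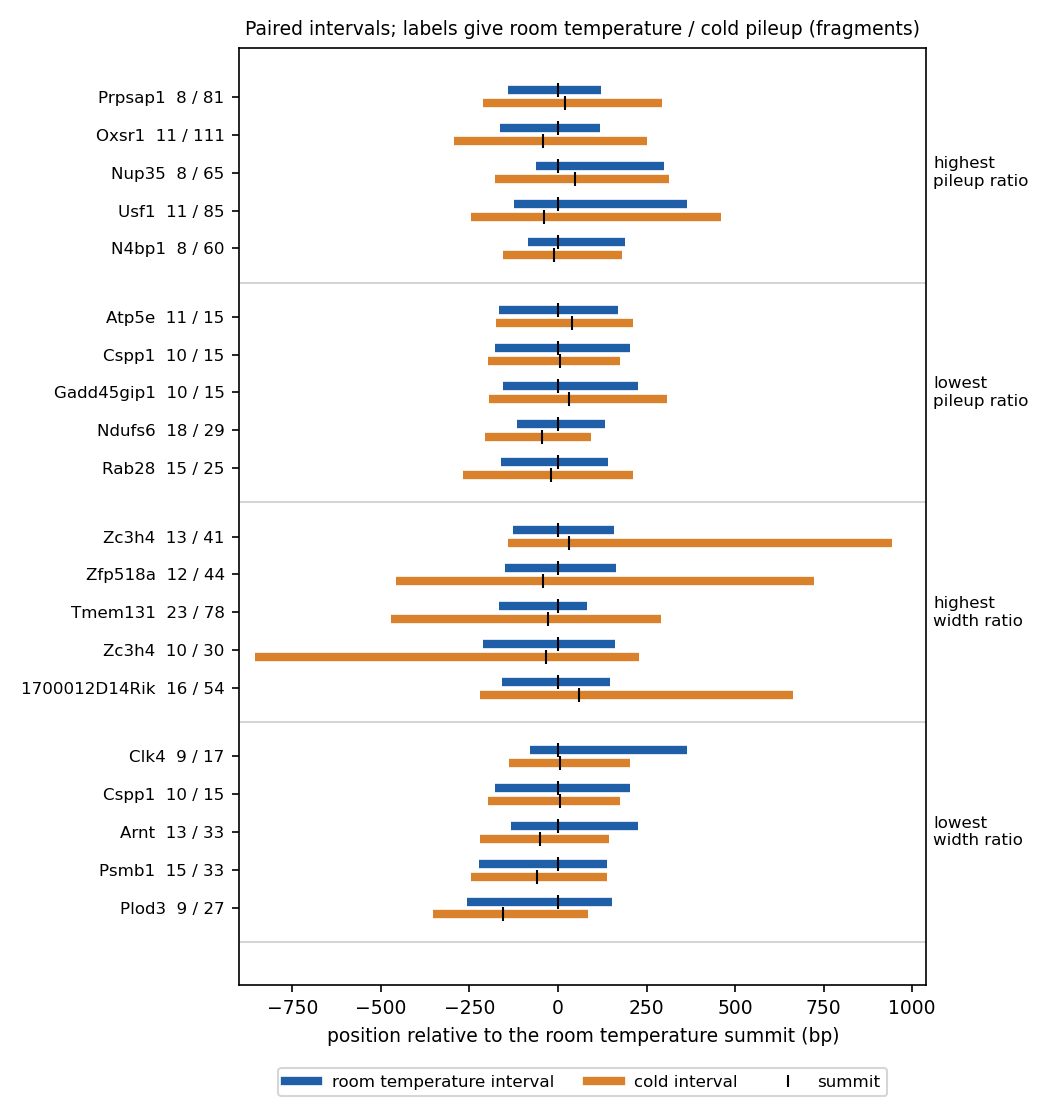
Room temperature (blue) and cold (orange) intervals of 20 pairs, drawn to scale against the room temperature summit at 0 (x axis, bp), in 4 groups of 5 by the highest and lowest pileup ratio and width ratio. Ticks mark summits and the row labels give the gene with its room temperature and cold pileup in fragments. The summits of most pairs lie close together while the cold interval reaches further on both sides, and at Zc3h4 a single cold interval spans 2 room temperature intervals.

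The largest width ratios were at Zc3h4 and Zfp518a, both named for zinc fingers. At Zc3h4, whose product is known for holding back transcription of noncoding RNA, 2 room temperature intervals of 286 and 372 bp lay under a single cold interval of 1085 bp with 2 summits. Their width ratios were 3.79 and 2.92, and their pileups went from 13 to 41 and from 10 to 30 fragments. At Zfp518a an interval of 314 bp stood against one of 1183 bp (ratio 3.77), with 12 and 44 fragments. Tmem131, a gene for a membrane protein, had 250 and 764 bp (ratio 3.06) with 23 and 78 fragments. At 1700012D14Rik the widths were 306 and 885 bp (ratio 2.89) with 16 and 54 fragments. The pileup ratios of these 5 pairs, from 3 to 3.67, lay near the median ratio.

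The smallest width ratios were at Clk4 and Cspp1, the 2 pairs with a narrower cold interval. Clk4, a kinase gene whose product phosphorylates splicing factors, had widths of 443 bp at room temperature and 341 bp in the cold list (ratio 0.77), with 9 and 17 fragments. Cspp1 had 383 and 374 bp. Arnt, the partner gene of the hypoxia-inducible factors, had 360 and 364 bp with 13 and 33 fragments, and the proteasome subunit gene Psmb1 361 and 384 bp with 15 and 33. At Plod3, which encodes a collagen-modifying enzyme, the widths were 411 and 438 bp with 9 and 27 fragments. In these 5 pairs the pileup was higher after cold on intervals of nearly the same or a smaller width.

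Width and strength were loosely tied. Across the 154 pairs the log2 width ratio and the log2 pileup ratio had a Pearson's r of 0.21 and a Spearman's rho of 0.23. Within a library, pileup and width had an r of 0.26 at room temperature and 0.39 after cold (log2 values). The widths of both libraries were related with an r of 0.68 (rho 0.59). Cold intervals that held more than 1 entry were wider, with a median of 915 bp in 13 pairs against 507 bp in the 141 pairs with 1 entry. Their width ratios had medians of 2.1 and 1.48, and their pileup ratios 3 and 3.32.

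Within the same bins of fragments, the cold intervals of shared peaks had larger median widths than those of peaks listed after cold only. At summits of 21 to 30 fragments the median was 458 bp for 31 shared cold peaks (quartiles 366.5 and 581.5) and 375 bp for 310 cold-only peaks (327 and 432). At 41 to 60 fragments it was 519 bp for 42 shared peaks and 443 bp for 53 cold-only peaks, and at 61 to 141 fragments 616 bp for 43 and 459 bp for 15. With intervals of more than 1 entry left out, the medians at 21 to 30 fragments were 412.5 and 371 bp, and at 61 to 141 fragments 609.5 and 459 bp. The bin of 61 to 141 fragments is not matched in strength. Its cold-only peaks reached 92 fragments and its shared peaks 141, and pileup and width were related within the cold list. The room temperature intervals of the same shared peaks were 349.5 bp wide at 21 to 30 fragments (14 peaks) and 334 bp at 16 to 20 (35 peaks), where cold-only peaks had 375 and 325 bp. The quartiles overlap in each of these bins, and the differences were not tested, since overlap with the other list chose the peaks.

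**Figure D4:**
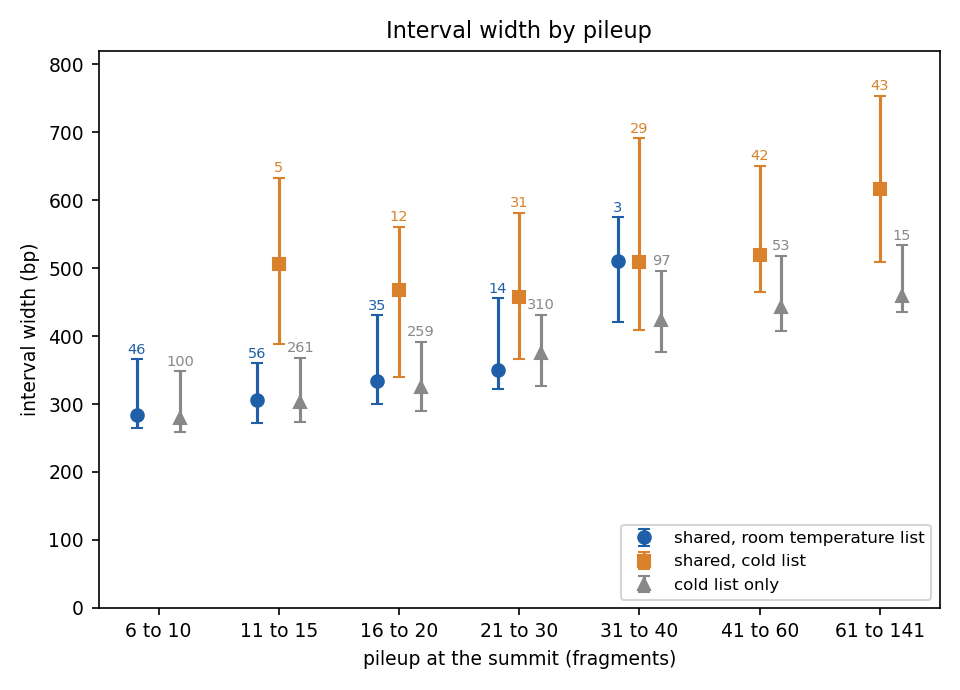
Median interval width (y axis, bp) by pileup at the summit (x axis, bins of fragments) for shared peaks in the room temperature list, shared peaks in the cold list and peaks of the cold list only. Whiskers are quartiles, numbers give the peaks per bin, and bins with under 3 peaks are not drawn. At 21 to 30 fragments the medians are 349.5, 458 and 375 bp in this order.

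The summits of a pair lay close together. Their distance had a median of 29 bp (quartiles 12 and 45.5). It was at most 25 bp in 73 pairs (47.4%), at most 50 bp in 120 (77.9%) and at most 100 bp in 141 (91.6%), and in 2 pairs the summits were at the same base. The cold summit lay inside the room temperature interval in 153 of the 154 pairs. As there is 1 library per condition, how far summits of repeated libraries would lie apart is not known.

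Of the 5 largest distances, 2 came from intervals with more than 1 room temperature summit. They were 267 bp at Usf1 and 241 bp at Fiz1, where in each case the other summit of the same interval lay nearer to the cold one, at 40 and 52 bp. At Srsf7, a splicing factor gene, the distance was 177 bp, and this was the 1 pair whose cold summit lay outside the room temperature interval. At Plod3 it was 154 bp. The 13 pairs over 100 bp apart had a median cold width of 625 bp and a median cold pileup of 34 fragments, against 510 bp and 46 fragments in the other 141 pairs.

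A gene end lay within 1 kb of the cold summit in 136 of 154 pairs (88.3%, 82.2 to 92.9), and at least 2 ends of protein-coding genes did in 43 (27.9%, 21 to 35.7). A start lay within 1 kb in 86% of the shared peaks with promoter entries (79.4 to 91.1) and in 848 of 1066 cold-only peaks (79.5%, 77 to 81.9), so nearness to starts is common to the whole cold list. Of the 18 pairs further away, 16 lay inside the gene, and at Prpsap1, Aars2 and Hnrnpul1 the promoter table places a start 161, 46 and 19 bp from the cold summit. Around starts, 84 of 129 cold summits (65.1%, 56.2 to 73.3) and 83 of 129 room temperature summits (64.3%, 55.4 to 72.6) lay downstream. The median position was 39 bp downstream after cold and 53 bp downstream at room temperature. Among cold-only peaks near a start 601 of 848 summits lay downstream (70.9%, 67.7 to 73.9), with a median of 64 bp.

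Along the gene, the cold summits lay on both sides of the room temperature summits. Seen in the direction of transcription, the cold summit lay upstream of the room temperature summit in 54 pairs, downstream in 74 and at the same base in 1, with a median displacement of 5 bp (quartiles -20 and 32). The cold summit was the closer one to the start in 69 of 129 pairs (53.5%, 44.5 to 62.3). The start itself lay inside the room temperature interval in 79 of the 129 pairs (61.2%) and inside the cold interval in 104 (80.6%).

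**Figure D5:**
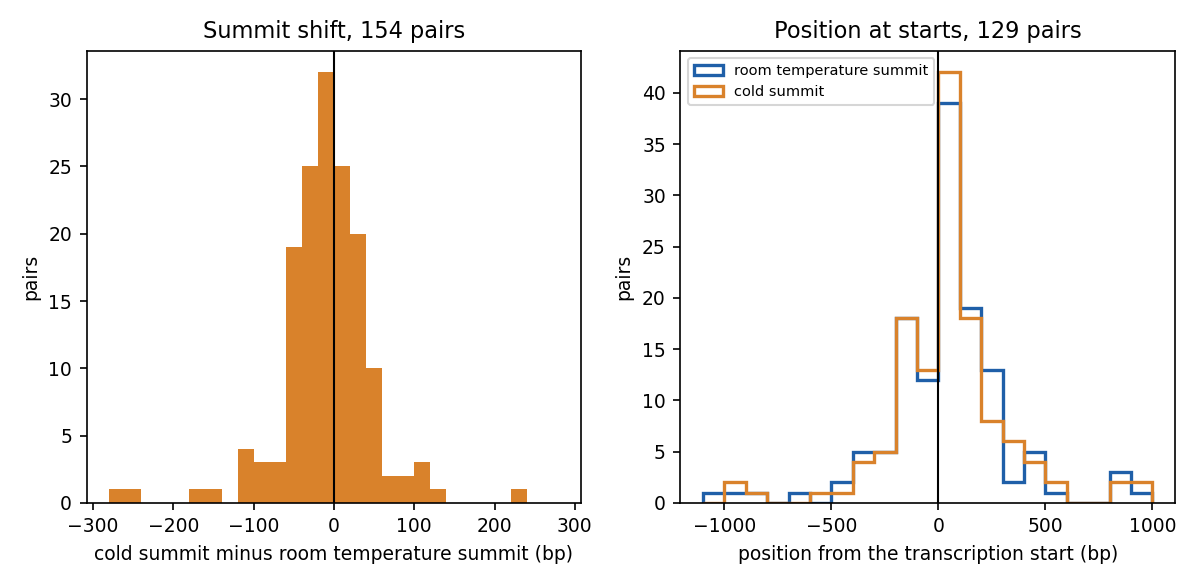
Left, distance in bp from the room temperature summit to the cold summit of each of 154 pairs, in genome orientation, as a histogram of pairs. Right, position in bp of the room temperature (blue) and cold (orange) summits relative to the nearest transcription start for 129 pairs, positive values lying downstream. Both summits gather just downstream of the start, with medians of 53 and 39 bp.

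Distances from the summits to a YY1 core could be taken only inside the promoter windows. These windows lie at starts, where the summits gather, so short distances are in part set by the search. Promoter sequence covered part of the cold interval in 116 pairs, with a median coverage of 47.4% of the interval, and 61 of these pairs had a core in the covered part (52.6%, 43.1 to 61.9), 18 of them more than 1. The room temperature summit lay a median of 65 bp from the nearest core (quartiles 34 and 136) and the cold summit 52 bp (25 and 114). The cold summit was the closer one in 31 of the 61 pairs, the room temperature summit in 29, and 1 pair was equal. At Hnrnpul1, an RNA-binding protein gene, the summits lay 6 bp (room temperature) and 8 bp (cold) from a core. At Tpgs1 they lay 12 and 45 bp from the first of the sites printed above, at Aars2, the mitochondrial alanyl-tRNA synthetase gene, 5 and 30 bp, and at Zfp882 71 and 23 bp from the site printed above.

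Peaks with and without a core in the covered sequence were of like strength. The median pileup ratio was 3.25 in the 61 pairs with a core (quartiles 2.54 and 4.22) and 3.47 in the 55 pairs without (2.79 and 4.49). The width ratios had medians of 1.59 and 1.52, the cold pileups a median of 47 in both, and the summit distances medians of 29 and 25 bp. No core was found in the promoter windows at Septin7 and Psmb5, among the strongest members, which says only that these letters are not in the parts of those intervals that the windows cover.

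At 186 of 21900 protein-coding genes (0.849%) a shared peak lay inside the gene or within 1 kb of an end. The gene groups below were defined by symbol patterns, and the share over all genes takes no account of which genes adipocytes express. That share is for shared peaks only. Cold-only peaks were far more numerous, with 1095 entries, and the share of all genes with a cold-only peak is not given. The counts of genes with a cold-only peak below can therefore not be judged against 0.849%. Each group's counts and medians describe these libraries and were not tested. Splicing factor genes held 7 shared peaks among 102 genes (6.86%), and a further 30 genes had a cold-only peak. The 7 pairs had a median pileup ratio of 3.12 and a median width ratio of 1.59, against 3.27 and 1.49 over all pairs. Srsf3, an SR protein gene, had 22 and 53 fragments on 319 and 915 bp, and its summits were 1 bp apart. Hnrnpul1 had 18 and 79 fragments, Hnrnpa2b1, which shares the region with Cbx3, 17 and 53, and Sfswap 8 and 35. Of the 7 splicing pairs, 5 had a width ratio above the median.

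The respiratory chain list had 6 of 114 genes with a shared peak (5.26%). Ndufb5, which shares its peak with the mitochondrial ribosomal protein gene Mrpl47, had a room temperature pileup of 20 and a cold pileup of 84 on 433 and 847 bp. Uqcrh, a complex III subunit gene beside Lrrc41, had 20 and 79, Uqcc2, an assembly factor gene of complex III, 14 and 49, and Ndufa13 of complex I, beside Tssk6, also 14 and 49. With Ndufs6 and Atp5e the group thus held pileup ratios from 1.36 to 4.2. Mitochondrial ribosomal protein genes had 2 shared peaks among 78 genes (2.56%), at Mrpl36 and Mrpl47, and 29 further genes with a cold-only peak. The import list had 1 of 40, Tomm40l, a homologue of the outer membrane channel gene, with 23 and 79 fragments on 275 and 545 bp. In the list for fatty acid oxidation, 1 of 41 genes had a shared peak, Crat.

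The ubiquitin list had 6 of 308 genes (1.95%), with a median pileup ratio of 2.51 and a median width ratio of 1.2, and 5 of its 6 pairs were below the median in both, as were 48 of all 154 pairs. Among them were Cops5 and Cops6 of the signalosome, the ubiquitin-conjugating enzyme gene Ube2l3 (12 and 33 fragments, 290 and 344 bp), and the deubiquitinase gene Otub1 (11 and 23 fragments, 260 and 318 bp). The exception was Usp21, beside Ufc1, with 13 and 58 fragments on 245 and 503 bp. The proteasome list had 3 of 53 (5.66%). Psmb5, a catalytic subunit gene, had 27 and 122 fragments on 421 and 751 bp, while Psmb1 had 15 and 33, and Psmc5, beside Ftsj3, 11 and 28.

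The list of genes named for zinc fingers, many of which encode DNA-binding proteins, had 9 of 497 with a shared peak (1.81%), forming 11 pairs, of which all but that at Zfp207 were above the median in width ratio, with a median width ratio of 2.04. Zfp143, which encodes a promoter-binding activator, had 17 and 59 fragments on 322 and 857 bp. Zc3h11a, which shares its promoter region with Zbed6, had 12 and 50 fragments on 249 and 632 bp, and Zfp882 7 (2.81 to 14.4) and 48 (35.4 to 63.6) fragments on 369 and 727 bp. Zfp524, beside Fiz1, had a cold summit of 73 fragments against 2 room temperature summits of 19 and 13. The median pileup ratio of the 11 pairs was 3.47, and 7 of them were above the median of all pairs. Zc3h4 and Zfp524 each count as 2 pairs on a single cold interval.

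The kinase list had 3 of 194 genes (1.55%), all 3 pairs above the median in width and strength, as were 48 of all 154 pairs. Among them were Oxsr1 and Akt1s1, the latter placed in the list by its symbol. Akt1s1 encodes a subunit of the growth-regulating mTOR complex and had 15 and 81 fragments on 513 and 1200 bp. Of the nuclear receptor genes 2 of 45 had a shared peak (4.44%). These were Nr3c1, where the peak lay inside the gene at an unknown distance from a start, and the retinoid X receptor gene Rxrb. The latter lay beside Slc39a7 and had 16 and 61 fragments. The list of general transcription and Mediator genes had 2 of 125 (1.6%). Gtf3c6, an RNA polymerase III factor gene, held 18 and 76 fragments on 282 and 712 bp at its end, and Med25 11 and 52. Of the cytoskeleton GTPase list, Septin7, Septin2 beside Hdlbp (19 and 65 fragments) and Arhgap30 beside Usf1 had shared peaks, 3 of 107 genes (2.8%). The centrosome list had 3 of 93 (3.23%), Tpgs1, Cdk5rap2 and the scaffold gene Pcnt, the last with 13 and 29 fragments.

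Genes of YY1's own chromatin partners had 2 shared peaks among 38 (5.26%). Actr8, an INO80 subunit gene, had 16 and 42 fragments on 272 and 404 bp. Hcfc1 held the widest shared interval of both lists, 1312 bp at room temperature with 2 summits of 14 and 11 fragments and 1783 bp after cold with 3 summits. The cold summits paired with them had 49 and 27 fragments. The promoter windows there held 3 cores, 1 of them printed above, and no shared interval had more.

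The other lists had between 0 and 7 members. Membrane traffic genes had 7 of 252 (2.78%), with a median pileup ratio of 2.8. Among them Vps35l had 16 and 60 fragments, Exoc7, beside Gm26730, 14 and 53, and the adaptor subunit genes Ap1g1 and Ap3d1 15 and 42, and 14 and 39. There was 1 shared peak each among 84 translation factor genes (Eif4g2, 22 and 86 fragments), 53 RNA helicase genes (Ddx17, 11 and 33 fragments on 978 and 1343 bp) and 37 tRNA synthetase genes (Aars2, 14 and 61). Exosome and ribosome biogenesis genes had 0 of 64, with 12 genes that had a cold-only peak.

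Split at both medians, the pairs fell into 48 with larger width and pileup ratios, 48 with smaller ones, 29 that were stronger but narrower and 29 that were wider but weaker. The wide and strong pairs went from a median of 302 bp and 13.5 fragments to 575 bp and 61 fragments, with Prpsap1 and Oxsr1 at the extreme. The narrow and weak pairs went from 346 bp and 11 fragments to 405.5 bp and 29 fragments, with Clk4 and Cspp1 at the extreme. Pairs that were stronger but narrower, such as Nup35 and N4bp1, had median widths of 353 and 475 bp at 14 and 60 fragments. Those that were wider but weaker, such as Srsf3 and Zc3h4, had 312 and 550 bp at 14 and 39 fragments. More than 1 cold summit was found in 6 of the 29 wider but weaker intervals, 1 of the 29 stronger but narrower ones, and 3 of 48 in each of the other classes. The median summit distance was 28 to 29.5 bp in all 4 classes. Genes were near the peak in like shares, 43 of 48, 45 of 48, 24 of 29 and 24 of 29 in the order given first.

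The edge of the rule was not crowded. The smallest overlap among the members was 203 bp, and the median was 312.5 bp. On the other side, the closest entry without overlap was a room temperature peak of 8 fragments at Mettl2 that ended 40 bp from a cold peak of 15 fragments. Only 4 cold-only entries lay within 1 kb of a room temperature entry. The 10 room temperature entries left outside had 6 to 9 fragments, where the members had 6 to 35, and a median width of 268 bp.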

How the data were processed

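The submitters' processing notes name mm10 and the tools MACS2, BWA, SAMtools, DESeq2 and deepTools. How they were run, and against which control, is not stated there. For each library the authors deposited a list of peaks, every entry having a score (10 times its −log10 p, cut to a whole number, in all 165 and 1259 entries), a fold enrichment at the summit (a linear ratio), −log10 p, −log10 q and a summit position.

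Pileups were recovered as the whole number that satisfied fold = (pileup + 1) / (background + 1) and the Poisson p together, with 165 of 165 and 1259 of 1259 entries matched within 0.0002 on the −log10 p scale. One cold entry had a second match. The lowest background of each list, divided by its smallest interval width, put the cold library at 1.05 times the depth of the other. This takes that width for the fragment length and that background for the genome-wide one, and neither could be checked. The absolute depth is unknown. Fragments can include PCR copies. Intervals are exact 95% Poisson, Clopper-Pearson or conditional binomial. The steps recovered all planted values on simulated data.

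Coordinates are 1-based. Genes are protein-coding and lncRNA genes of a RefSeq table, and starts come from its promoter table, which has no entry for some genes. Both are GRCm38.p6. Peaks are named by the nearest gene end. Named were the 5 pairs at each extreme of pileup ratio and width ratio, the 5 largest summit distances, the 5 highest pileups of each library, 2 pairs per class of the final split, and up to 4 members per gene list. Others given by name for their place at the edge of the overlap rule, for a turned fold enrichment ratio or to complete a list, were chosen after their values were seen. Some list members and sites are not reported here. Members and lists were chosen with earlier results of these data known. Python 3.11.15 with SciPy 1.17.1 and pandas 2.3.3 was used.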

Additional observations from a re-analysis of the deposited data

How the results depend on the processing

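Of 49 values under an alternative setting, 41 stayed within the 95% interval of the reported value, within 1.5 times a reported count or within 0.1 of a reported correlation, while 8 did not. The median pileup and width ratios stayed above 1 and the correlations stayed positive. Counts, shares and summit distances cannot be negative and so had no direction to turn. Why the 8 values moved was not tested. A reciprocal overlap of 50% left 128 room temperature entries, a median width ratio of 1.44 and a correlation of width and pileup ratios of 0.33. The deposited fold enrichment in place of the pileup gave a median ratio of 2.61, with 3 of 154 pairs below 1, and a correlation of 0.41. The share at a gene end was 79.2% within 500 bp and 93.5% within 3 kb. The share of promoters with a YY1 match was 18.4% with the longer motif and 61.1% in windows that hold the cold summit. That last setting, starts in place of gene ends and cold intervals with 1 entry were added after the data were seen. No paired analysis was possible because there is 1 library for either condition. For the same reason no library could be left out.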
